A study of Mus musculus with 12 samples.

Results

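The genes described here encode the proteins of the cytosolic ribosome. They were taken by name: every row of the deposited expression table named Rpl or Rps followed directly by a digit, together with Rplp0, Rplp1, Rplp2 and Rpsa, leaving out names with -ps (pseudogenes) and the Rps6k kinases. The rule found 85 of 20457 genes, 51 with large subunit names and 34 with small subunit names. It used no measured value. 83 of the 85 passed the filter on low values (a normalized count of at least 10 in at least 3 of 12 libraries), among 14803 genes that did.

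Libraries were made with Smart-Seq2, a full-length cDNA amplification for small inputs, from 50 hematopoietic stem cells (HSCs) each, sorted from the bone marrow of C57BL/6 mice. The 4 groups had 3 libraries each: IL27RA+ HSCs of old mice (28 months), IL27RA- HSCs of old mice (28 months), IL27RA+ HSCs of young mice (2 months) and IL27RA- HSCs of young mice (2 months). IL27RA is the ligand-specific subunit of the interleukin-27 receptor, and cells were sorted by its presence on the surface. The labels name no genetic change or treatment, and leave unsaid whether each library of a group stands for its own mouse, so p-values measure the spread between these libraries. For 1 library, old IL27RA- replicate 1, the source name says young while the title and the age say old, and it was kept as old.

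Reads counted in genes ranged between 11669083 and 24153167 per library. All 13 genes of an HSC marker list had reads in every group. Their summed normalized counts were 54457 to 59053 in old IL27RA+, 70865 to 73864 in old IL27RA-, 60739 to 67768 in young IL27RA+ and 66841 to 76854 in young IL27RA- libraries. The list and its sum include Cd34 and Flt3, for which low counts were expected in HSCs. Over all libraries Cd34 had 1922 to 5486 normalized counts and Flt3 had 21.2 to 903.4. Il27ra mRNA itself had 1148 to 1498 normalized counts in old IL27RA+, 1075 to 1632 in old IL27RA-, 887 to 1253 in young IL27RA+ and 711 to 1564 in young IL27RA- libraries. These ranges overlap. Igkc, an immunoglobulin light chain gene of B cells, had 312300 normalized counts in old IL27RA- replicate 1 and at most 248.4 in any other library. In that library the B cell genes Ighm and Ebf1 were at 0, Cd79a had 432.3 normalized counts against at most 36.3 elsewhere, and Cd79b had 970.6, within the 654.6 to 1425 of the others. Summed counts of the 11 macrophage genes in the table (of 12 named) were 1138 to 6410 in old IL27RA+, 842.7 to 1663 in old IL27RA-, 4425 to 6299 in young IL27RA+ and 1172 to 1810 in young IL27RA- libraries. 5 of the 11 had an unadjusted p under 0.05 by limma between the sorts in old mice (5.38% of all genes did). Between the sorts in young mice 7 did (8.23% of all genes). The 6 erythroid genes in the table summed to 5015 in young IL27RA+ replicate 2 and to at most 1296 in any other library. The part of macrophage and erythroid RNA in the differences between sorts was not tested. Young IL27RA- replicates 2 and 3 were the deepest libraries and had the fewest genes with a read, 13509 and 13978.

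A ribosome is built of a small subunit, which reads the mRNA, and a large subunit, which joins amino acids. Most of their proteins are made in equal amounts. In mammals ribosomal protein mRNAs are translated together through a run of pyrimidines at their very start (the TOP motif). The mTOR pathway controls this. HSCs are known for a low rate of protein synthesis compared with their progeny, and in humans loss of 1 copy of certain ribosomal protein genes causes Diamond-Blackfan anaemia.

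Promoters of these genes were searched for short stretches of letters. Windows are printed for members that stand out below for their age difference or their spread. RefSeq promoters (GRCm38.p6, 250 bases before to 50 bases after the annotated start) were found for 63 of the 85 members. A run of C followed by at least 5 pyrimidines, on the gene's own strand and beginning within 30 bases of the annotated start, was present in 49 of 63 (77.8%), and in 44.9% of all 27025 genes with a promoter. The letters CCGGAA, on either strand anywhere in the promoter, were present in 34 of 63 (54.0%), and in 16.7% of all genes. The letters TATAAA were found in 7 members (11.1%), and in 15.7% of all genes. The letters AAGATGG were found in 10 members (15.9%), and in 7.28% of all genes. A start with exactly CTTTT, or with exactly CTTTC, or with exactly CTCTT, was found in 6 members (9.52%), and in 0.685% of all genes; such a start may overlap the longer run. These are matches of letters and not tested sites. The windows below run over 100 bases, 85 before and 15 after the annotated start (the first listed, where there are several). They are written 5′ to 3′ on the gene's strand, with the pyrimidine runs in capitals. Runs that begin after the window are not shown, and the last run of Rpl38, 6 bases long, is cut by the window's end.
Rpl10a (chr17:28328386-28328485, plus strand): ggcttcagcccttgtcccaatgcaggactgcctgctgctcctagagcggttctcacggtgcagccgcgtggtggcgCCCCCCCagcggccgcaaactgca
Rps2 (chr17:24719978-24720077, plus strand): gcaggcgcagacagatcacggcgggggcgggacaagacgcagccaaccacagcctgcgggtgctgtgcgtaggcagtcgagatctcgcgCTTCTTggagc
Rps6 (chr4:86857353-86857452, minus strand): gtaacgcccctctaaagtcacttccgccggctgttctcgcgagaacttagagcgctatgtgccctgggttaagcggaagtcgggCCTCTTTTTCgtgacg
Rpl28 (chr7:4792880-4792979, plus strand): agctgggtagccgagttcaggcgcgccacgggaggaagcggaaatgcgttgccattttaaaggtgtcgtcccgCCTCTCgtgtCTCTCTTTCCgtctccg
Rpl38 (chr11:114668495-114668594, plus strand): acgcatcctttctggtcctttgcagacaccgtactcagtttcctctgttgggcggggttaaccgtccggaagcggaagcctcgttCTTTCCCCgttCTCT
Rps21 (chr2:180257294-180257393, plus strand): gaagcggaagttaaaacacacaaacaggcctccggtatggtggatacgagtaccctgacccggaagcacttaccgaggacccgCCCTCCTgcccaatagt

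Ribosomal protein genes took between 3.07% and 5.28% of the reads in genes. The share was 4.75%, 4.76% and 3.81% in old IL27RA+ libraries, 5.28%, 4.91% and 3.84% in old IL27RA- libraries, 4.29%, 4.07% and 4.13% in young IL27RA+ libraries, and 5.24%, 3.07% and 3.54% in young IL27RA- libraries. The group means were 4.44% ± 0.545 (SD, n = 3), 4.68% ± 0.745, 4.16% ± 0.113 and 3.95% ± 1.15 in that order, and the ranges of the groups overlap. The young IL27RA- group holds both the lowest library of all and the second highest. The large subunit names took 2.53%, 2.63%, 2.40% and 2.32% on average, and the small subunit names 1.91%, 2.05%, 1.77% and 1.63%. Both subunits thus have the same order of groups. In bulk samples such as these, fewer cells of a kind and less RNA per cell cannot be told apart.

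**Figure D1:**
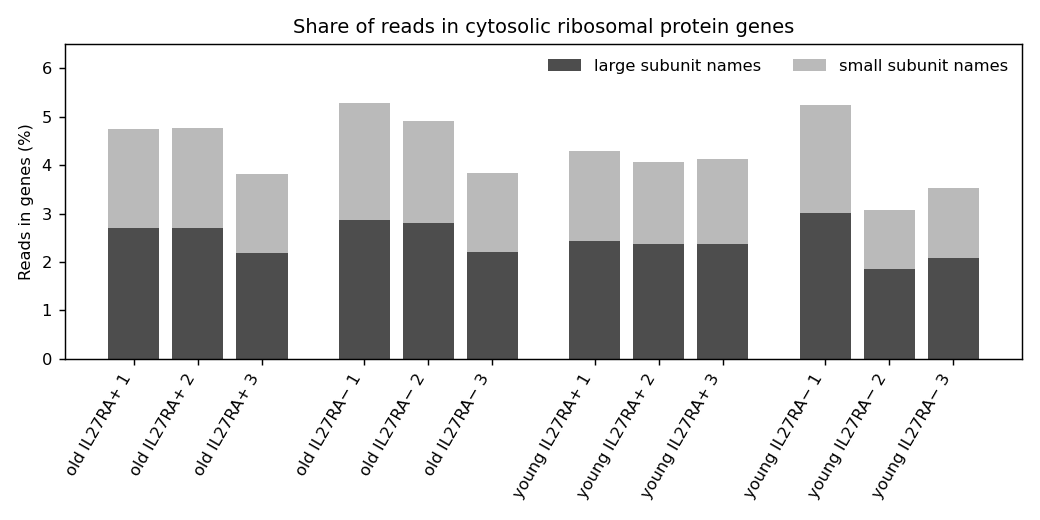
Percent of the reads in genes that fell in ribosomal protein genes, in each of the 12 libraries, with large subunit names (dark) and small subunit names (light) stacked. Young IL27RA- replicate 2 is lowest at 3.07% and old IL27RA- replicate 1 highest at 5.28%.

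The reads were spread unevenly over the members. 5 genes held 42.0% of them and 20 genes 77.1%. Rpl4, which lines the tunnel through which the new protein leaves the large subunit, had the highest mean at 89288 normalized counts over the 12 libraries. Rplp0, the base of the stalk that recruits translation factors, had 54366. Rps6, the small subunit protein that S6 kinase phosphorylates, had 50865. Rps3a and Rps2 followed with 45757 and 43240. Levels can be compared between genes only per length. Per 1000 coding bases, Rpl4 stood first with 71032 normalized counts, before Rps6 with 68092, Rps3a with 57774, Rplp0 with 57167 and Rps3, which sits where the mRNA enters, with 53633. The lowest tested members on that scale were Rps19bp1 with 1262, Rpl28 with 1577, Rpl8 with 1667, Rps21 with 1908 and Rps15 with 1938. Rps19bp1 matched the name rule but encodes a protein that binds Rps19, not a subunit of the ribosome.

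Several members matter for reading the counts. The row named Rpl24 carries the identifier that GENCODE M21 gives to the neighbouring gene Zbtb11, so its identity is uncertain and its length was not used. Processed copies of ribosomal protein genes are many in the mouse genome, and the sources used here do not say how reads with several matches were treated. The members held 8545571 reads over all libraries and the 73 rows named as such pseudogenes 18513, with Rpl10-ps3 the largest of these at 3552 reads. Reads from members and from near-identical copies may therefore be split between rows.

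No ribosomal protein gene passed an adjusted p of 0.05 (limma, Benjamini-Hochberg over 14803 genes) between IL27RA+ and IL27RA- HSCs of old mice, where 0.0203% of all genes did. None had an unadjusted p under 0.05, by limma or by limma voom on the recovered reads, and 5.38% of all genes did by limma. The fitted log2 differences of the 83 members lay between -0.63 and 0.22 with a median of -0.14, against 0.02 over all genes tested. 64 members were below 0 and 19 above. Rpl4 had 85316, 87826 and 94340 normalized counts in old IL27RA+ and 129873, 104460 and 92548 in old IL27RA- libraries, and these values overlap. Its log2 difference was -0.28 ± 0.20 (SE, adjusted p = 1 by limma), and that of Rps3 -0.31 ± 0.23 (adjusted p = 1). Rpl29 had the largest difference upward, 0.22 ± 0.25. Without old IL27RA+ replicate 3, the library lowest in 13 of the 83 members, the median was 0.05.

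Between IL27RA+ and IL27RA- HSCs of young mice, again no member passed, and 0.0203% of all genes did. The median difference was 0.30 against 0.04 over all genes, and 71 members were above 0 and 12 below. 3 members had an unadjusted p under 0.05 by limma (8.23% of all genes did) and 8 by limma voom (9.2% of all genes). Rps29, a small zinc-binding protein of the small subunit, had 2100, 1799 and 1482 normalized counts in young IL27RA+ and 2870, 70.1 and 204 in young IL27RA- libraries. The IL27RA- values lie on both sides of the IL27RA+ values. Its log2 difference was 2.36 ± 1.02 (adjusted p = 0.580 by limma). Rpl28 had 640.1, 993.1 and 1002 in young IL27RA+ and 1363, 88.7 and 153.8 in young IL27RA- libraries, a difference of 1.69 ± 0.76 (adjusted p = 0.600). In both genes it is replicate 1 that lies above and replicates 2 and 3 that lie below.

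This comparison rests on which young IL27RA- libraries are counted. Leaving out replicate 1 gave a median of 0.75 and 5 of 83 members that passed (50 of all 14803 genes, 0.338%), all higher in IL27RA+, among them Rps19, Rpl28, Rps18 and Rpl19. Without replicates 2 and 3 together, an alternative added after seeing the data, the median was -0.55 and none passed. Rplp0, of the stalk, was among the 12 members below 0, with 52044, 39596 and 42016 in young IL27RA+ and 64267, 40344 and 55286 in young IL27RA- libraries, a difference of -0.24 ± 0.20 (adjusted p = 0.784 by limma).

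**Figure D2:**
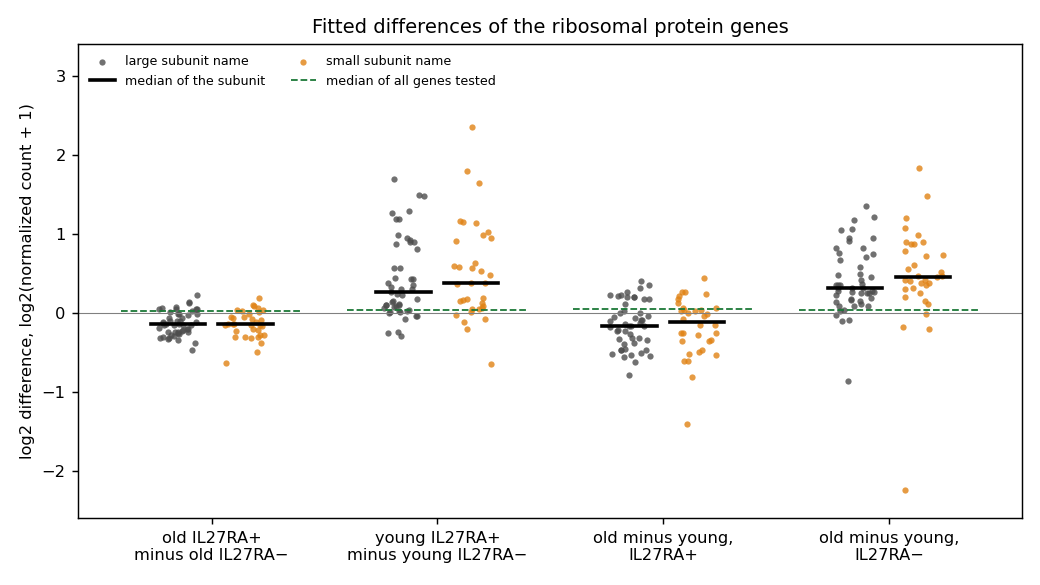
Fitted log2 differences of the 83 tested members in the 4 single comparisons, large subunit names in grey and small subunit names in orange, with the median of each subunit (black bar) and of all genes tested (dashed line). Medians over all 83 members are not drawn. They lie below 0 for the sort in old mice (-0.14) and for age in IL27RA+ cells (-0.15). Above 0 are those for the sort in young mice (0.30) and for age in IL27RA- cells (0.37).

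In IL27RA+ HSCs, no member passed between old and young mice, and 0.426% of all genes did. The median difference was -0.15 against 0.05 over all genes, with 54 members below 0 and 29 above, and without old IL27RA+ replicate 3 it was 0.09. 1 member had an unadjusted p under 0.05 by limma (8.88% of all genes did), and 1 by limma voom (7.58% of all genes). That member by limma was Rps2, a small subunit protein near the mRNA entry site. It had 49610, 48540 and 46996 normalized counts in old IL27RA+ and 41821, 33985 and 31837 in young IL27RA+ libraries, with no overlap. Its log2 difference was 0.44 ± 0.20 (adjusted p = 0.536 by limma). Rplp0 had 59847, 57674 and 57666 in old and 52044, 39596 and 42016 in young libraries, also without overlap (0.40 ± 0.20, adjusted p = 0.597). These 2 of 83 members were the ones with every old library above every young one, where 9.09% of all genes were, and Rps4y2 was the 1 with every old library below every young one, where 7.78% were.

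Between old and young IL27RA- HSCs, no member passed, and 0.669% of all genes did. The median difference was 0.37 against 0.04 over all genes, with 75 members above 0 and 8 below. 5 members had an unadjusted p under 0.05 by limma (12.5% of all genes did) and 6 by limma voom (14% of all genes). Rps3 had 66857, 48219 and 38044 normalized counts in old IL27RA- and 37595, 23804 and 30842 in young IL27RA- libraries, every old value above every young one. Its difference was 0.72 ± 0.23 (adjusted p = 0.202 by limma). Rps6 had 76080, 58141 and 48195 in old and 48500, 39708 and 42352 in young libraries, which overlap (0.46 ± 0.20, adjusted p = 0.359). Rpl4 had a difference of 0.45 ± 0.20 (adjusted p = 0.373) without overlap. Leaving out young IL27RA- replicate 1 gave a median of 0.70 and 14 of 83 members that passed (271 of all genes, 1.83%), all higher in old, among them Rps19, Rpl36a, Rps18, Rpl19, Rpl26, Rpl31, Rps7, Rpl28, Rps29, Rpl37a and Rps23. Without replicates 2 and 3 together the median was -0.60 and none passed. Rpl4 and Rps3 were the 2 of 83 members with every old library above every young one (7.8% of all genes), and Rpl10a and Rps4y2 the 2 with every old library below (6.71% of all genes).

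Averaged over both sorts, no member passed between old and young HSCs, and 1.85% of all genes did. The median was 0.16 against 0.06 over all genes, with 73 of 83 above 0, and without young IL27RA- replicate 2 it was -0.03. Without young IL27RA- replicate 1 it was 0.38, and 30 of 83 members had an unadjusted p under 0.05 by limma (18.4% of all genes). None of them passed. With all 12 libraries, 7 members had an unadjusted p under 0.05 by limma voom (15.4% of all genes). By limma 7 members did (15.1% of all genes): Rps2, Rps3, Rps6, Rplp0 and Rpl4 with higher fitted values in old, and Rpl10a and Rps4y2 with lower ones. The first 5 are among the 7 members with most reads. Their differences were 0.43 ± 0.14 for Rps2 (adjusted p = 0.147 by limma), 0.47 ± 0.16 for Rps3 (0.182), 0.36 ± 0.14 for Rps6 (0.241), 0.31 ± 0.14 for Rplp0 (0.312) and 0.31 ± 0.14 for Rpl4 (0.317).

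Rpl10a and Rps4y2 were among the 10 members below 0 for age averaged over sorts. Rpl10a, a large subunit protein near the site where spent tRNA leaves, had 3316, 3770 and 2060 normalized counts in old IL27RA+ and 2348, 3369 and 2480 in old IL27RA- libraries. It had 3244, 4063 and 5245 in young IL27RA+ and 5089, 4624 and 5032 in young IL27RA- libraries. In IL27RA- cells every old value lies under every young one, and in IL27RA+ cells the ages overlap. The difference averaged over sorts was -0.67 ± 0.18 (adjusted p = 0.0823 by limma), the smallest adjusted p of any member in any comparison. Within IL27RA- cells it was -0.86 ± 0.26 (adjusted p = 0.164) and within IL27RA+ cells -0.47 ± 0.26 (adjusted p = 0.647).

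Rps4y2, which GENCODE M21 lists as Rps4l, a transcribed processed pseudogene on chromosome 6 related to Rps4x, had low counts. They were 79.5, 45.0 and 32.8 in old IL27RA+, 34.7, 44.6 and 51.5 in old IL27RA-, 153.2, 90.9 and 163.0 in young IL27RA+, and 240.4, 221.1 and 166.7 in young IL27RA- libraries. All 6 old libraries lie under all 6 young ones. It was the 1 member of 83 of which this held, and 0.669% of all genes did the same in that direction. No member lay the other way round, and 1.39% of all genes did. The difference averaged over sorts was -1.82 ± 0.55 (adjusted p = 0.115 by limma). With the stricter filter of 10 normalized counts in all 12 libraries it passed, with the same difference and adjusted p = 0.0266 by limma, as 181 (1.8%) of the 10037 genes left by that filter did. Its X-linked relative Rps4x, the functional small subunit gene, had 5700, 6421 and 3828 in old IL27RA+, 5566, 5841 and 3556 in old IL27RA-, 5089, 4238 and 5999 in young IL27RA+, and 8206, 3159 and 3577 in young IL27RA- libraries. The ages overlap in Rps4x. Reads of the 2 genes may be exchanged where their sequences are alike.

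**Figure D3:**
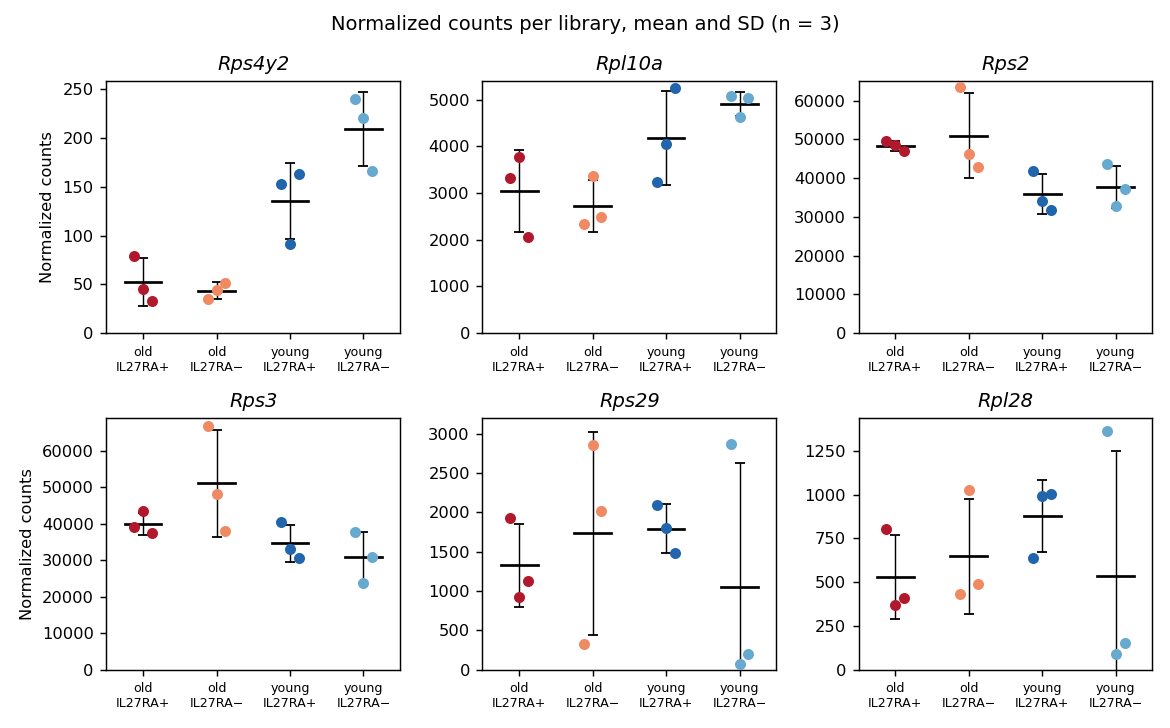
Normalized counts of 6 members in each library (points), with the group mean and SD (n = 3 each), each axis starting at 0. Old libraries of Rps4y2 lie between 32.8 and 79.5, under all young ones, whereas Rps29 and Rpl28 show young IL27RA- replicate 1 far above replicates 2 and 3.

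The sort difference averaged over ages gave no call (0.189% of all genes) and no member with an unadjusted p under 0.05 by limma (7.98% of all genes had one), and 1 by limma voom (8.73%). Its median was 0.12, and -0.03 without young IL27RA- replicate 2. Without young IL27RA- replicate 1 it was 0.33, and 27 of 83 members had an unadjusted p under 0.05 by limma (10.8% of all genes). None of them passed. With all 12 libraries, no member's age difference was found to depend on the sort. The interaction then gave no call among members or among all genes (0%). No member had an unadjusted p under 0.05 for it by limma (5.19% of all genes) or limma voom (5.52%). The median of the interaction was -0.40 against 0.01 over all genes, and 0.39 without young IL27RA- replicates 2 and 3 together. Without young IL27RA- replicate 1 it was -0.77, and 39 of 83 members had an unadjusted p under 0.05 by limma (8.09% of all genes). Again none passed. The test over all 4 groups gave no call among members (1.11% of all genes), and 3 members with an unadjusted p under 0.05 by limma (12.3% of all genes) and 5 by limma voom (13.6%). Without young IL27RA- replicate 1 it called 11 of 83 members and 312 (2.11%) of all genes.

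Single libraries stood apart in this gene family. Young IL27RA- replicate 1 was the highest of the 12 libraries for 49 of the 83 members, and old IL27RA- replicate 1 for 22. Young IL27RA- replicate 2 was the lowest for 53, old IL27RA+ replicate 3 for 13 and young IL27RA- replicate 3 for 9. The median log2 level of the members was 11.61, 11.51 and 10.93 in old IL27RA+ libraries, 11.29, 11.79 and 11.39 in old IL27RA- libraries, 11.47, 11.53 and 11.78 in young IL27RA+ libraries, and 12.16, 10.67 and 10.97 in young IL27RA- libraries. Summed counts of a 20-gene proliferation list were between 18552 and 26585 in old IL27RA+, between 4899 and 8412 in old IL27RA- and between 10438 and 22410 in young IL27RA+ libraries, and 18954, 13963 and 16814 in young IL27RA- libraries. Of these 20 genes, 17 had an unadjusted p under 0.05 by limma between the sorts in old mice (5.38% of all genes did). Between the sorts in young mice 2 did (8.23% of all genes). The part of depth, of the number of genes detected and of cycling cells in the differences between libraries was not tested.

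The members differed in how much they varied. The SD within groups had a median of 0.49 (log2) over the 83 members, against 0.71 over all genes tested and 0.42 over the 6054 genes at or above the 5th percentile of the members' level. Rps29 had the widest spread with an SD of 1.64, and its highest library had 40.9 times the count of its lowest. Rps21 followed with 1.48, Rps28 with 1.27 and Rpl38 with 1.23. The narrowest were Rpl22 with 0.18, Rpl4 with 0.20, Rps2 and Rplp0 with 0.21 each, and Rps6 with 0.22.

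Of the 81 members with a coding length, 24 had a spread above the median of all genes. All 24 lay under their own mean in both young IL27RA- replicate 2 and replicate 3, by a median of 2.15 and 1.38 on the log2 scale, and none lay under it in replicate 1. Of the other 57 members, 53 and 52 lay under their mean in replicates 2 and 3, and 6 in replicate 1. The 24 separated the old IL27RA- libraries: 21 lay under their mean in replicate 1 and none in replicate 2. Of the other 57, 8 and 3 lay under their mean in those 2 libraries. The old IL27RA+ libraries differed too: 0, 23 and 23 of the 24 lay under their mean in replicates 1, 2 and 3. Of the other 57, 6, 7 and 51 did. Among the 24 were Rps19, the gene most often mutated in human Diamond-Blackfan anaemia, and Rpl38, which in mice is needed for the translation of certain Hox mRNAs. Rps19 had 4263, 2351 and 2365 normalized counts in old IL27RA+, 2433, 5336 and 3245 in old IL27RA-, 3310, 3291 and 4597 in young IL27RA+, and 6860, 618.3 and 1076 in young IL27RA- libraries. Rpl38 had 959.2, 390.8 and 492.2 in old IL27RA+, 268.7, 1305 and 806.2 in old IL27RA-, 876.0, 945.4 and 815.1 in young IL27RA+, and 1466, 88.0 and 237.5 in young IL27RA- libraries. Rps21, a small subunit protein, had 576.6, 308.4 and 311.7 in old IL27RA+, 178.1, 869.7 and 556.3 in old IL27RA-, 445.5, 637.5 and 588.2 in young IL27RA+, and 1068, 26.5 and 134.5 in young IL27RA- libraries. In these 3 genes the young IL27RA- group spans more than the other 3 groups together. These 24 were set apart by their values, so their split is a description.

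**Figure D4:**
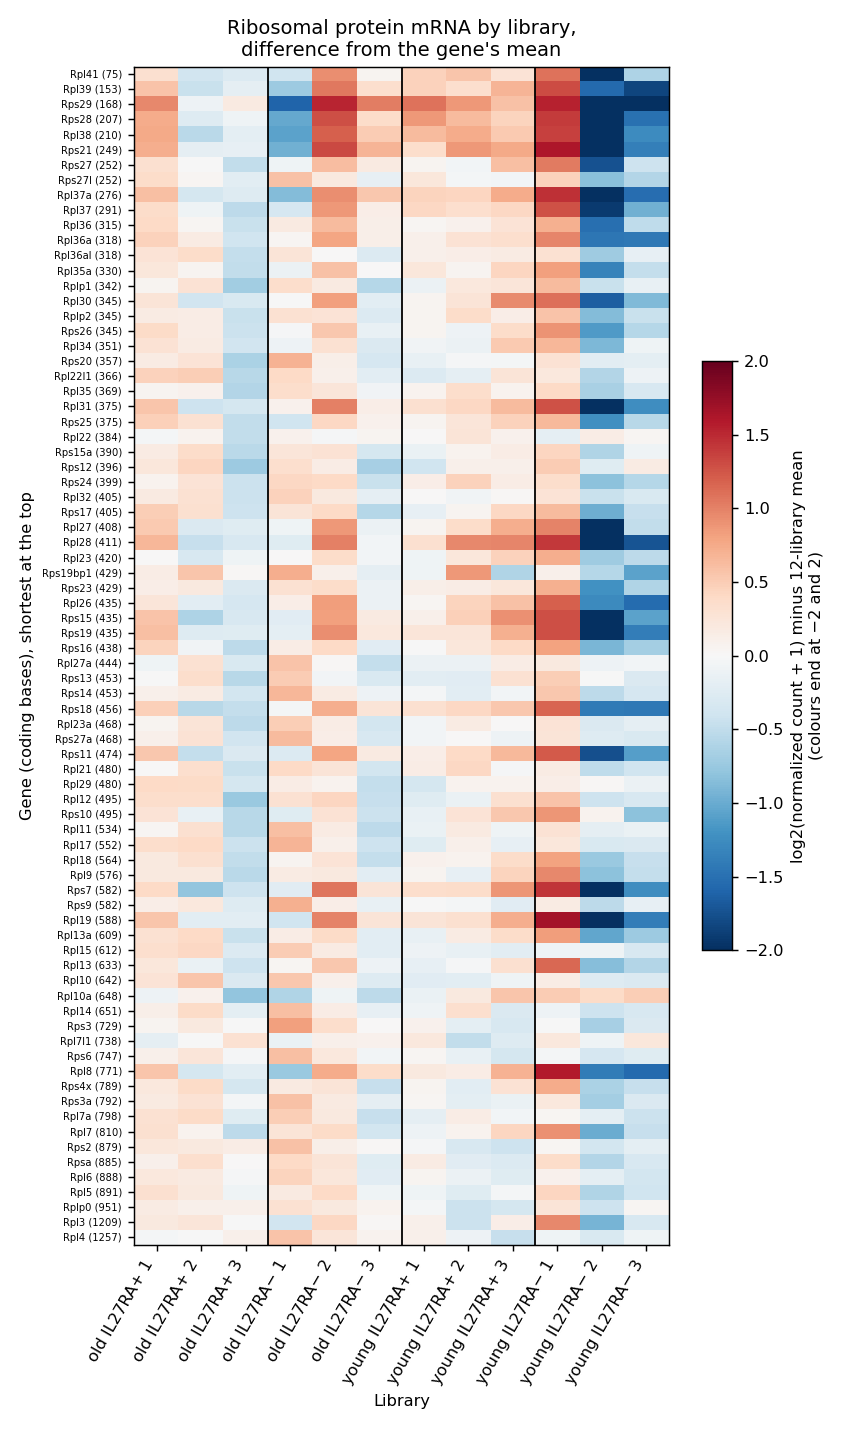
Log2 level of 78 members in each of the 12 libraries as the difference from the gene's own mean (red above, blue below; colours end at -2 and 2), with genes ordered by coding length, shortest at the top. Young IL27RA- replicate 1 is mostly red and replicates 2 and 3 mostly blue, with the strongest colours in the short genes and in a few longer ones such as Rpl8 and Rpl19.

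Members with wide spread tended to be short and of low level. Over the 81 members Spearman's rho with the SD within groups was -0.49 for coding length, -0.78 for the mean log2 level and 0.18 for the GC share of the coding part. Level and length are themselves related (rho 0.64), and all genes share the same 12 libraries, and genes are not independent replicates, so these are descriptions. The median SD was 0.61 for the 28 members under 400 coding bases, 0.53 for the 30 members of at least 400 and under 600, and 0.32 for the 23 members of 600 or more. For the other tested genes of those lengths it was 0.60 (661 genes), 0.55 (962 genes) and 0.64 (10922 genes). Short and middle members had a spread near that of other genes of their length, and long members had a smaller one. These other genes were matched for length and not for level. At or above the 5th percentile of the members' level, the median SD over all genes tested was 0.42. The 24 members with wide spread had mean normalized counts between 475.1 and 3312, and the other 57 between 541.6 and 89288. In young IL27RA- replicate 2 members under 400 coding bases lay 1.28 under their mean (median, log2), and the 661 other tested genes of that length lay 0.45 under theirs. The median difference between the sorts in young mice was 0.57 for the members under 400 coding bases and 0.08 for those of 600 or more. For the interaction it was -0.77 and -0.15. For age in IL27RA+ cells it was -0.26 for the short members and 0.19 for the long ones, on opposite sides of 0.

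**Figure D5:**
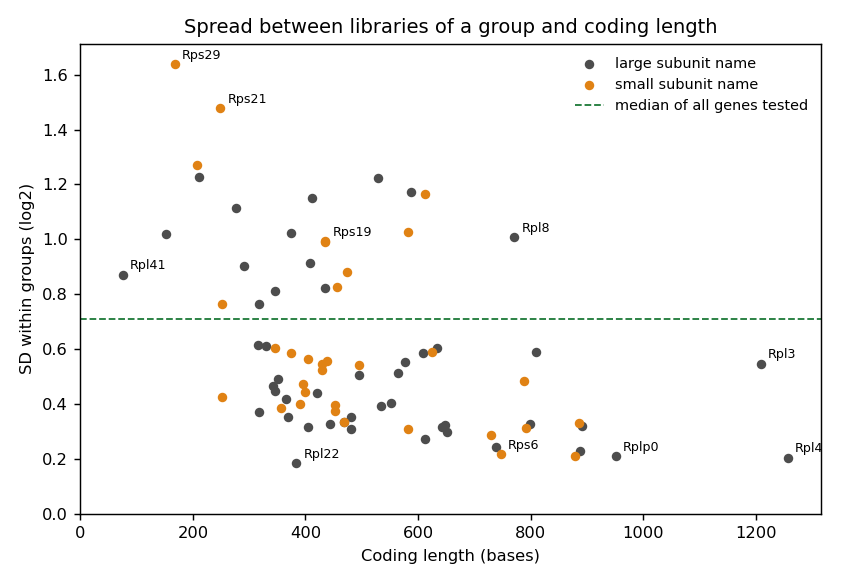
SD within groups (log2) of 81 members against the number of coding bases, large subunit names in grey and small subunit names in orange, with the median of all genes tested as a dashed line. Wide spreads up to 1.64 lie mostly among short genes, and Rpl4, Rplp0 and Rps6 lie near 0.2.

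Members with known roles outside protein synthesis, or of special structure, are given by their range. Rpl5 and Rpl11, which outside the ribosome bind Mdm2 and so stabilise p53, had 3020 to 6167 and 4208 to 9436 normalized counts over the 12 libraries. Their SDs within groups were 0.32 and 0.39. Rps27a, made as a fusion with ubiquitin, ranged between 6281 and 12756, and Rpsa, also known as a laminin receptor, between 6732 and 13264. The stalk proteins Rplp1 and Rplp2 ranged between 3683 and 9329 and between 1254 and 3409. Rpl41, the shortest member with 75 coding bases, ranged between 525.3 and 4536. None of these passed a test, and each had its highest library in old IL27RA- replicate 1 or young IL27RA- replicate 1.

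Some ribosomal proteins have a second, related gene. Rpl3l, known from heart and skeletal muscle, and Rpl39l, known from testis, did not pass the filter. Rpl3l had 1 read in each of 2 libraries and Rpl39l reached 6.37 normalized counts in 1, young IL27RA- replicate 1, and was at 0 in the others. The other pairs were both expressed. Rpl22l1 made up 45.2%, 43.8% and 35.6% of the sum of Rpl22l1 and Rpl22 per coding base in old IL27RA+ libraries, and 41.9%, 38.6% and 32.5% in old IL27RA- libraries. It made up 32.4%, 29.98% and 39.6% in young IL27RA+ and 43.2%, 25.9% and 34.5% in young IL27RA- libraries. Those shares overlap between all groups. Rpl22 itself, which in mice is needed for normal T cell development, had the smallest SD within groups and ranged between 1980 and 3313 normalized counts. The share of Rpl36al with Rpl36a lay between 25.6% and 58.7%, that of Rps27l, a p53 target, with Rps27 between 17.5% and 38.4%, and that of Rpl7l1 with Rpl7 between 50.5% and 75.7%. In each of these 3 pairs the highest share was in young IL27RA- replicate 2 or 3.

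Some genes outside the name rule had a pattern like that of the members, and how many did was not counted. The gene most like the mean of the members over the 12 libraries was Fau (r = 0.98), which encodes the small subunit protein Rps30 fused to a ubiquitin-like part. After it came Atp6v1g1, a subunit of the vacuolar proton pump (r = 0.96), mt-Co3, a mitochondrially encoded subunit of cytochrome oxidase (0.96), 2410006H16Rik (0.96) and Pfn1, the actin-binding profilin (0.95). Fau had 2216, 1789 and 1462 normalized counts in old IL27RA+, 1831, 2507 and 1670 in old IL27RA-, 2050, 2185 and 2897 in young IL27RA+, and 4134, 590.4 and 919.8 in young IL27RA- libraries. Its young IL27RA- values lie on both sides of the values of the other groups, as those of Rps19 do. Fau and Gnb2l1, ribosomal protein genes with other names, gave no call and no unadjusted p under 0.05 in any of the 7 contrasts by limma. The members least like the mean of the others were Rps4y2 (r = -0.15), Rpl7l1 (-0.14), Rpl22 (-0.09) and Rpl10a (0.01). These correlations were taken over all 12 libraries and include differences between groups.

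Genes that work with the ribosome did not pass either. No gene passed in any of the 7 contrasts by limma in the list of 19 tested translation factors and other genes with TOP mRNAs (such as Tpt1, Vim, Nap1l1 and Hnrnpa1), of 56 ribosome biogenesis genes or of 22 genes that control ribosomal protein mRNAs. An unadjusted p under 0.05 was found, over the 7 contrasts, for 0 to 3 of the 19, 1 to 6 of the 56 and 1 to 4 of the 22. For age averaged over sorts the counts were 3, 3 and 2, where 15.1% of all genes had one. The 19 genes had medians of -0.14 for the sort in old mice, 0.18 for the sort in young mice, 0.06 for age in IL27RA+ cells and 0.36 for age in IL27RA- cells. The biogenesis genes had 0.10, -0.06, 0.07 and 0.01 in that order. The 76 mitochondrial ribosomal protein genes, all tested, had 0.07, 0.08, 0.10 and 0.23, and their share of reads was 0.391% ± 0.0314 in old IL27RA+, 0.370% ± 0.0222 in old IL27RA-, 0.375% ± 0.0202 in young IL27RA+ and 0.356% ± 0.0292 in young IL27RA- libraries (SD, n = 3 each).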

How the data were processed

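RNA of 12 libraries of sorted mouse bone marrow HSCs was sequenced after Smart-Seq2, shearing of the cDNA and size selection on a gel, per the labels' protocols. The submitters' processing notes name FastQC 0.11.5, TopHat2 2.1.1, HTSeq and DESeq2; no source used here names the genome build. The authors deposited 1 table of log2 values, whose steps are those of log2(read count / size factor + 1). Whole reads were recovered for 100% of 179292 values above 0 (tolerance 0.001). Of the deposited lines, 1 damaged line with a value of another kind in the column of young IL27RA- replicate 2 was dropped, as were 15 repeated lines. The method has no molecular identifiers, so PCR copies are counted.

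limma 3.58.1 (R 4.3.3) with a mean-variance trend was fitted to all 12 libraries with 1 mean per group, and p-values were adjusted over the 14803 genes past the filter. A fold is on the log2(normalized count + 1) scale. Errors are SE for differences and SD for groups. Tables were made with Python 3.11.15, numpy 2.4.6, pandas 2.3.3 and scipy 1.17.1, and figures with matplotlib 3.10.9. Coding length is that of the shortest principal transcript in GENCODE M21. The fit was also run on simulated counts with known age changes, drawn for each gene on its own. Those counts held no effect shared by the genes of a library, so they do not bear on the library differences above.

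The members, gene lists and tests were chosen with earlier results of these data known. Genes were named by rule: members called, 4 members per direction and single comparison by smallest p, members outside the filter, paralogs and members of known role, and the 5 highest and lowest by level per length and by spread. The 24 members of wide spread were chosen after their values were seen. Floors of 3 reads correspond to 1.93 to 3.77 normalized counts per library, for counting error only. Some members that the rule names are not reported here by name, and the plot of members by library leaves them out.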

Additional observations from a re-analysis of the deposited data

How the results depend on the processing

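The count of members that passed was 0 in all 8 tests as reported. Of 180 recounts under other settings, 176 stayed at 0 and 4 did not. With the stricter filter 1 member passed for age averaged over sorts (Rps4y2), among 181 of 10037 genes. Leaving out each library in turn gave 0 to 5 for the sort in young mice, 0 to 14 for age in IL27RA- cells and 0 to 11 for the test over all 4 groups, and every count above 0 came without young IL27RA- replicate 1, where 50, 271 and 312 of all 14803 genes passed in these 3 tests. Of 179 recomputed medians, 12 changed sign and 4 moved by more than 0.46 (log2), the SD within groups of the libraries' own medians over the members. The 4 were all without young IL27RA- replicates 2 and 3 together: -0.55 for the sort in young mice, -0.60 for age in IL27RA- cells, -0.35 for age averaged and 0.39 for the interaction. The young IL27RA- group then had 1 library, which was assumed to vary like the other groups. Of 20 recomputed shares 3 moved by more than the SD of their group's 3 libraries: without the 100 other genes with most reads they were 5.53% in old IL27RA+, 5.97% in old IL27RA- and 5.12% in young IL27RA+ libraries. The share in young IL27RA- libraries was then 4.85%, within its SD of 1.15. Leaving those 100 genes out lowers the total and so raises every share. The cause of the changes in counts and medians was not tested.

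The planned edgeR fit was not run, since the deposited values are log2 values, and limma voom on recovered reads was used instead. Deviations of same-numbered libraries correlated between -0.05 and 0.11, with 1 of 18 pairs over 0.1. Those of other-numbered libraries correlated between -0.07 and 0.07, with 0 of 36 pairs over 0.1. Between the sorts of one age, same-numbered libraries had 0.031, 0.0039 and 0.096 in old mice. In young mice they had 0.106, 0.028 and 0.017. Whether sorts of the same number share a mouse was not tested. With a replicate block 0 members passed in any of the 8 tests, and all genes called for age averaged numbered 307, against 274 without. Groups of 3 limit the single comparisons: an exact permutation test of 3 against 3 cannot go below p = 0.1.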
